A study of Homo sapiens with 5 samples.

Results

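Forkhead transcription factors were followed in the human small-cell lung cancer (SCLC) cell line NCI-H209 by RNA-Seq, without and with human brain microvascular endothelial cells (HBMECs). They were taken as every gene of the deposited name table whose symbol is FOX, one letter from A to S and a number, which gave 38 genes under 39 of the 64837 gene entries counted. FOXO6 has 2 entries, because part of its reads was counted on an entry that the primary annotation does not hold. Antisense genes and the FOXD4-like copies are outside this definition, and so are 6 forkhead genes of the annotation that the name table does not list (FOXF2, FOXI2, FOXN1, FOXR1, FOXR2 and FOXS1), which had 0 to 1 counts per library.

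The study asked how brain endothelium changes the transcriptome of lung tumor cells. The control group was 3 libraries of untreated NCI-H209 cells, and the co-cultured group was 2 libraries of NCI-H209 cells that had shared medium with HBMECs across a Transwell membrane for 24 h. The treatment characteristic of the controls says untreated, whereas the protocol text of all 5 libraries describes conditioning by HBMECs, and the characteristic was followed. Both groups were the same unmodified line, and 1 line with 1 source of endothelial cells limits the comparison. The medium during co-culture is not given in the sources used here. Nothing in the labels says that the libraries came from separate cultures, so p-values measure only the spread between these libraries, which may be technical.

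Forkhead proteins bind DNA through a winged-helix domain whose recognition helix lies in the major groove, and they share a core motif close to GTAAACA. The subfamilies differ in what they do. FOXA proteins open closed chromatin in endoderm-derived tissue such as the lung. FOXO proteins carry out the transcriptional response to low insulin and growth factor signaling. FOXM1 drives the genes of mitosis, and FOXP proteins are mostly transcriptional repressors that act in lung and brain development. Many others, such as FOXC1, FOXD1, FOXI3 and FOXN4, pattern embryonic tissue.

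The recognition helix is shown because it is what the members have in common and where the subfamilies differ. Among 29 tested members searched, 27 had exactly 1 match in their longest coding transcript of GENCODE release 29 to the conserved stretch of this helix. The 14 codons from that point are printed here for 8 members as coding strand DNA in GRCh38, with capitals marking each codon whose amino acid differs from that of FOXC1. In 12 of the 27 genes an intron splits the 42 bases, and the coordinates then run from the first to the last base.
FOXC1 (chr6:1610809-1610850, plus strand): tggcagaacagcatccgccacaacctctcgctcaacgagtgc
FOXD1 (chr5:73447817-73447858, minus strand): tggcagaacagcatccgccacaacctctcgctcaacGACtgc
FOXJ3 (chr1:42265154-42278353, minus strand): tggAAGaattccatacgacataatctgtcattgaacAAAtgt
FOXK1 (chr7:4755378-4757029, plus strand): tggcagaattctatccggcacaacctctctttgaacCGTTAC
FOXN4 (chr12:109285455-109285496, minus strand): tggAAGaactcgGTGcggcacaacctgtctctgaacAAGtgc
FOXO1 (chr13:40560825-40665588, minus strand): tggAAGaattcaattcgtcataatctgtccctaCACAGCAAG
FOXO4 (chrX:71096976-71100719, plus strand): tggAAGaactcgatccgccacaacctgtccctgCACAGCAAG
FOXP4 (chr6:41591317-41594905, plus strand): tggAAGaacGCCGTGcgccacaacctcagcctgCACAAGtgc

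FOXD1 shared 13 of the 14 encoded residues with FOXC1, FOXJ3 and FOXK1 shared 12, FOXN4 shared 11, FOXO1 and FOXO4 shared 10 and FOXP4 shared 9. FOXC1 and FOXD1, which rose with log2 fold changes of 1.45 and 1.69, thus had nearly the same helix, and so did FOXD2, which also shared 13 residues with FOXC1 and had a log2 fold change of -0.01.

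Of the 39 forkhead entries, 31 passed the filter on low counts and were tested. After co-culture 16 were higher and 2 were lower with an adjusted p under 0.05 (edgeR's quasi-likelihood test, Benjamini-Hochberg adjustment over 20360 genes), and 13 passed in neither direction. The higher members were 51.6% of those tested, against 18.4% of all genes, and the lower members 6.45%, against 15% of all genes. The median log2 fold change of the tested members was 0.36, against -0.03 for all genes tested. At the study's own criterion, taken as more than 1 log2 unit in either direction and an unadjusted p under 0.05, 5 members were higher (16.1%, against 5.44% of all genes) and 2 lower (6.45%, against 5.01%). Both co-cultured libraries lay above all control libraries for 21 members (67.7%, against 29.4% of all genes) and below them for 5 (16.1%, against 30% of all genes), and the groups overlapped for 5. Under upper-quartile normalization 12 members were higher and 5 lower, while over all genes the split went from 3750 higher and 3059 lower to 3076 higher and 3929 lower. The number of higher members was 8 without co-cultured replicate 1 and 7 without co-cultured replicate 2, where a single library is assumed to vary like the controls, and over all genes the higher calls went from 3750 to 1749 and 1910. The number of lower members was 4 without control replicate 1 and 1 without control replicate 2 or either co-cultured library, while over all genes the lower calls went from 3059 to 4602, 2150, 985 and 1113. Without control replicate 1 the calls over all genes were 5295 higher and 4602 lower. Each gene or list given below without that library stands beside this general rise in calls. FOXD4 and FOXH1 passed the filter only through the co-cultured libraries and FOXB2 only through the controls, so their direction was set by the filter. They stay in the counts and shares above, FOXD4 and FOXH1 as higher and FOXB2 as lower, at the adjusted p and at the study's criterion.

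**Figure D1:**
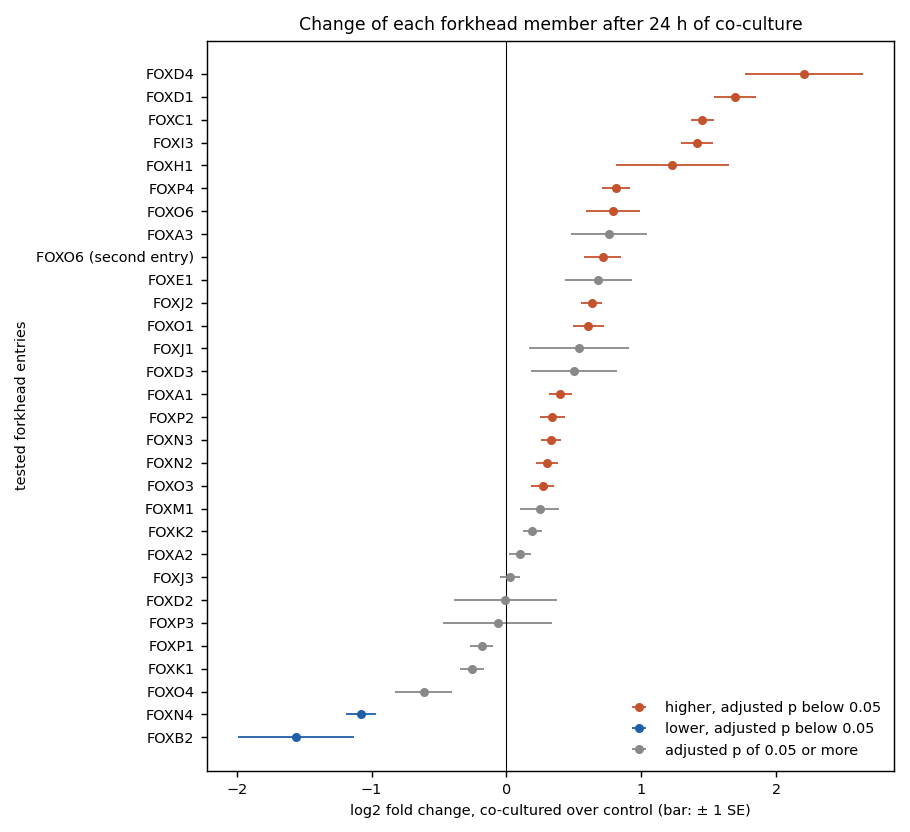
Log2 ratio of co-culture to control for 30 of the 31 tested forkhead entries (x axis, bars are 1 standard error), ordered by size on the y axis, with red for higher, blue for lower and grey for the other entries by the adjusted p. The members run from -1.56 (FOXB2) to 2.21 (FOXD4), and most lie to the right of 0.

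The libraries held 17317045 to 19157348 counts on genes for the controls, and 18918787 and 15457071 for the co-cultures. A floor of 3 counts was 0.157 to 0.194 CPM, the usual unit of a count relative to its library's total, before TMM factors were applied. Between the co-cultured libraries the chi-square of the counts per degree of freedom was 4.59, and between controls it was 6.34 for replicates 2 and 3 but 17.9 and 18.1 for the pairs with replicate 1, which therefore stood apart. Unmapped reads were 8.13% to 8.48% in control and 15.9% to 16.8% in co-culture. Reads on no annotated exon, in the count for the expected strand, were 47.3% to 51.2% in control and 40.1% to 40.8% in co-culture. The part of these differences in the results was not tested. Among 15 neuroendocrine markers 14 were tested, of which 5 were higher (35.7%, against 18.4% of all genes, SYP and SCG2 among them with log2 fold changes of 0.57 and 0.86) and 1 lower (7.14%, against 15%, DDC at -0.58), and CHGA had 0 to 1 counts. Of 20 endothelial markers, 9 never exceeded 3 counts, and 3 of these were at 0 in all libraries. The defining markers CDH5 and PECAM1 had 4 to 11 and 3 to 18 counts, while VWF had 75 to 159 and ERG 41 to 70. KDR counts were 37, 27 and 2 for control and 12 and 4 for co-culture, and TEK counts 31, 24 and 0, then 6 and 3. The summed endothelial level was 18.0 to 27.5 CPM in control and 23.8 to 24.2 CPM in co-culture. Of the 9 endothelial markers tested, 2 were higher (22.2%, against 18.4% of all genes) and 0 lower. These were ESAM and ICAM2 (log2 fold changes 2.14 and 0.45). ESAM stayed at 0.160 to 0.307 CPM without endothelial cells, under the filter's minimum of 0.529 CPM. It passed only through the co-cultured libraries (1.15 and 0.925 CPM), so the filter set its direction. The 8 fibroblast markers had a median of -1.69, and none was lower by the adjusted p. THY1 was higher (1.49). PDGFRB counts were 34, 30 and 0 for control and 1 and 2 for co-culture, DCN counts 27, 39 and 0, then 3 and 1, and LUM counts 20, 19 and 0, then 0 and 2. COL1A2, COL3A1 and PDGFRA also had more counts in control replicates 1 and 2 (12 to 33) than in replicate 3 (2 to 3), so these controls differed among themselves, and the part of this in the results was not tested. In bulk RNA fewer cells of a type and less RNA per cell cannot be told apart.

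FOXC1, a regulator of mesoderm, neural crest and eye development, rose most firmly. Its level was 19.1, 18.7 and 19.6 CPM in the control libraries and 52.4 and 52.3 CPM in the co-cultured libraries. The libraries of each group lay close together and far from those of the other, and the log2 fold change was 1.45 ± 0.09 (SE, n = 3 and 2, adjusted p = 2.19e-05). The other member of its pair, FOXC2, had 0 to 3 counts and was not tested.

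FOXD1, a factor of kidney stroma and retina, had 7.50, 7.91 and 7.22 CPM in control and 28.3 and 20.3 CPM in co-culture. Its co-cultured libraries differed from each other more than the controls did, but both stood well above them, with a log2 fold change of 1.69 ± 0.16 (SE, adjusted p = 0.000119). The antisense gene FOXD1-AS1, which overlaps it, had 0 to 2 counts on its own strand. FOXI3, which specifies ectodermal placodes, had 12.0, 10.2 and 10.9 CPM in control and 31.0 and 27.6 CPM in co-culture. That was a log2 fold change of 1.41 ± 0.12 (SE, adjusted p = 8.26e-05), again with no overlap between the groups. FOXC1, FOXD1 and FOXI3 kept their calls under all 13 alternative settings.

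FOXD4 rose from 0.319, 0.166 and 0.256 CPM to 1.09 and 1.26 CPM, which is from 3 to 6 counts per control library to 20 and 19 counts. Its log2 fold change was 2.21 ± 0.44 (SE, adjusted p = 0.00474), and without co-cultured replicate 2 it was 2.12 with an adjusted p of 0.0587. FOXD4 has near-identical copies, so the split of its reads is uncertain. Of these copies FOXD4L4 went from 5, 6 and 13 counts to 7 and 12, a log2 difference of 0.43 (adjusted p = 0.591). The other subfamily members FOXD2 and FOXD3, the latter a factor of neural crest and pluripotent cells, had log2 fold changes of -0.01 and 0.50 (adjusted p = 0.987 and 0.257).

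FOXN4, which specifies interneurons of retina and spinal cord, was the firmest fall. Its level was 27.8, 27.7 and 30.8 CPM in control and 13.99 and 13.1 CPM in co-culture, a log2 fold change of -1.08 ± 0.11 (SE, adjusted p = 0.000193), and the call held under all 13 alternatives. FOXB2 had 1.22, 1.604 and 0.922 CPM in control and 0.437 and 0.396 CPM in co-culture (log2 fold change -1.56 ± 0.43 SE, adjusted p = 0.0215). Its highest library had 29 counts, and its adjusted p was 0.0510 by DESeq2 and 0.0614 without control replicate 2. The call of FOXB2 was also lost without co-cultured replicate 1 (log2 fold change -1.63) or co-cultured replicate 2 (-1.49). The relatives of FOXN4 went the other way by smaller amounts. FOXN3, a checkpoint suppressor, had 129.5, 121 and 123 CPM in control and 159 and 154 CPM in co-culture (log2 fold change 0.33 ± 0.07 SE, adjusted p = 0.00897). FOXN2 had 61.0, 61.5 and 63.6 CPM in control and 79.9 and 72.9 CPM in co-culture (0.30 ± 0.08 SE, adjusted p = 0.0173). The groups did not overlap for either gene, but both calls were lost without co-cultured replicate 1 (adjusted p = 0.0946 for FOXN3 and 0.182 for FOXN2) or replicate 2 (0.0716 and 0.0604).

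The promoters of FOXC1, FOXD1, FOXI3 and FOXN4 are shown because these members had the firmest changes. Each runs from 250 bases before to 50 bases after the gene's start in RefSeq (GRCh38.p14), read along the gene's own strand. Capitals mark matches on either strand to ACGTG (a form of the core that hypoxia-inducible factors recognise), the CCAAT box (CCAAT), the TATA box (TATAAA) or the forkhead motif (GTAAACA). None of these words lies within another. The core's other form, GCGTG, was not searched and is not marked.
FOXC1 (chr6:1609665-1609964, plus strand): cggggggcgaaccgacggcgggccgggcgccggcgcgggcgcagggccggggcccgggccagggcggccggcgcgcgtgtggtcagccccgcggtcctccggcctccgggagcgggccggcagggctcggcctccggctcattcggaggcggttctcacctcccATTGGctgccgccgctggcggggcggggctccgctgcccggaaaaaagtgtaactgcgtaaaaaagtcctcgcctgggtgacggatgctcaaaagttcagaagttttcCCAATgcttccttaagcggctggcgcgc
FOXD1 (chr5:73448728-73449027, minus strand): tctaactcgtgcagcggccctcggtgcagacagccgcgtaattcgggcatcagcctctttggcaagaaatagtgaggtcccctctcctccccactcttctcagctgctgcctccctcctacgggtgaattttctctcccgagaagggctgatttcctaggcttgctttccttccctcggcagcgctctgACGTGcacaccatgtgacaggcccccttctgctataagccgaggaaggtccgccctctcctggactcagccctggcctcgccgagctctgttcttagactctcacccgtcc
FOXI3 (chr2:88452644-88452943, minus strand): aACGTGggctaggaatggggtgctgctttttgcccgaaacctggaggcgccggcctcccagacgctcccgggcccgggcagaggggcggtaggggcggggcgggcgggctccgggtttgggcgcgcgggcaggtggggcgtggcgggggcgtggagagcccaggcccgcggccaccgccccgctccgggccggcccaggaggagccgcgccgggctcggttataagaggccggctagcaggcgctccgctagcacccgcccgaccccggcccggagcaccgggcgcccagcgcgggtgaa
FOXN4 (chr12:109309235-109309534, minus strand): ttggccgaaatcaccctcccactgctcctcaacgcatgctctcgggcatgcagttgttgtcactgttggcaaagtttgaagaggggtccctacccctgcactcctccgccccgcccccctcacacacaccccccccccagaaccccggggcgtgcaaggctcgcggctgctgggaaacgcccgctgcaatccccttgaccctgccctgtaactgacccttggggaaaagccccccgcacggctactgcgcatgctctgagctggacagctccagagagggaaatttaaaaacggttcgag

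FOXC1 has 2 CCAAT matches, FOXD1 and FOXI3 have 1 ACGTG match each, and FOXN4 has no match to any of the 4 words. The unsearched form GCGTG can be read in the printed windows of FOXC1, FOXI3 and FOXN4, so lack of ACGTG is not lack of the hypoxia core. A window was found for 24 tested members, and FOXA2, FOXJ1, FOXM1 and FOXN2 were among those with no entry. ACGTG occurred in 10 of the 24 (41.7%, against 24.9% of 27305 genes with a window), namely FOXD1, FOXD3, FOXI3, FOXK1, FOXK2, FOXO3, FOXP1, FOXP2, FOXP3 and FOXP4, which include members that rose and members that did not. The GC box GGGCGG occurred in 20 of the 24 (83.3%, against 48.3%), CCAAT in 5 (20.8%, against 39.7%), TATAAA in 2 (8.33%, against 13.99%) and the forkhead motif GTAAACA itself in 2, FOXO4 and FOXP1 (8.33%, against 4.19%). The median GC content of the 24 was 68.7%, against 58.7% over all windows, and the frequency of each word depends on GC content. A match is a description of the letters and not a bound site.

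FOXA1 and FOXA2 are pioneer factors of lung epithelium. FOXA1 had 43.4, 41.6 and 47.2 CPM in control and 56.5 and 59.9 CPM in co-culture, with no overlap and a log2 fold change of 0.40 ± 0.09 (SE, adjusted p = 0.00756). Without co-cultured replicate 2 its adjusted p was 0.0937. The gene overlaps TTC6 on the other strand. FOXA2 had 52.3, 49.7 and 50.7 CPM in control and 53.4 and 55.7 CPM in co-culture, and although the co-cultured libraries were the highest, the log2 fold change of 0.10 ± 0.08 did not pass (adjusted p = 0.355). FOXA3, at 1.17, 1.33 and 1.08 CPM in control and 2.24 and 1.78 CPM in co-culture, differed by 0.76 ± 0.28 on the log2 scale (adjusted p = 0.0645). Of 32 partners and targets of FOXA proteins listed, 14 were tested, with 4 higher (28.6%, against 18.4% of all genes), 2 lower (14.3%, against 15%) and a median log2 ratio of 0.36. The corepressors TLE3 and TLE1 (0.64 and 0.77) and E-cadherin CDH1 (0.48) had the smallest p among those that rose, and GREB1 (-1.11) and NKX2-2 (-0.46) fell. Without control replicate 1 the list had 7 higher members, without co-cultured replicate 1 it had 2, and 1 was lower without either co-cultured library.

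FOXO genes rose, except for FOXO4. FOXO1 had 38.3, 45.6 and 48.0 CPM in control and 71.9 and 62.0 CPM in co-culture (log2 fold change 0.61 ± 0.11 SE, adjusted p = 0.00338), and without co-cultured replicate 1 it was 0.50 with an adjusted p of 0.0647. FOXO3, with 99.3, 101 and 110.4 CPM in control and 131 and 118 CPM in co-culture, had a smaller difference of 0.27 ± 0.08 (SE, adjusted p = 0.0368). The groups did not overlap, but the call was lost without control replicate 2 (adjusted p = 0.101), co-cultured replicate 1 (0.282) or co-cultured replicate 2 (0.0918). Its near copy FOXO3B had 54 to 70 counts per library, so a part of the reads may be split between them. FOXO6 had 3.14, 4.31 and 4.45 CPM in control and 6.78 and 6.94 CPM in co-culture on its primary entry (0.79 ± 0.20 SE, adjusted p = 0.0152). On its second entry it had 8.67, 10.0 and 8.19 CPM in control and 14.4 and 14.99 CPM in co-culture (0.71 ± 0.14 SE, adjusted p = 0.00416). Both entries rose by nearly the same amount, and they count as 2 of the 16 higher members although they are 1 gene. Without co-cultured replicate 1 or 2 the primary entry had an adjusted p of 0.0960. FOXO4 had 8.40, 13.8 and 12.9 CPM in control and 7.65 and 7.60 CPM in co-culture. Both co-cultured libraries were below every control, with a log2 fold change of -0.61 ± 0.21 (SE, adjusted p = 0.0520), and without control replicate 1, the lowest control, it was -0.80 with an adjusted p of 0.000131.

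The genes that regulate FOXO proteins were a list of 38, of which 35 were tested. Of these 15 were higher (42.9%, against 18.4% of all genes) and 3 lower (8.57%, against 15%), and the median log2 ratio was 0.21. SGK1, a kinase that phosphorylates FOXO proteins, averaged 3.93 ± 1.27 CPM over the 3 controls and 18.4 ± 1.61 CPM over the 2 co-cultures (± SD, log2 fold change 2.23). The insulin receptor substrate IRS1 (1.15) and the deacetylase SIRT1 (1.02) also rose. The receptors IGF1R (-0.78) and INSR (-0.35) and the kinase AKT2 (-0.24) fell, while AKT1 was at 0.12 (adjusted p = 0.370). Without either co-cultured library 7 regulators were higher and 1 was lower. YWHAE had 0 to 2 counts. Its level, like that of CHGA, was not read from so few counts.

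Among 36 FOXO targets 32 were tested, of which 8 were higher (25%, against 18.4% of all genes) and 3 lower (9.38%, against 15%), and the median log2 ratio was 0.12. The rises with the smallest p were those of the cell cycle inhibitor CDKN1A (1.71), of CITED2 (1.99) and of the mitophagy gene BNIP3 (1.12). The other 5 that rose, named after their values were seen, were MXI1 (1.602), BCL6 (1.15), GADD45A (0.76), DEPP1 (0.68) and SESN3 (0.42). SELENOP (-0.44), RBL2 (-0.38) and ULK1 (-0.32) fell. Among the targets that did not pass were CDKN1B (0.11), TXNIP (-0.20) and BCL2L11 (-0.26), with adjusted p-values of 0.293, 0.203 and 0.0636. Left without control replicate 1, the list had 14 higher and 6 lower members, beside 5295 higher and 4602 lower over all genes.

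**Figure D2:**
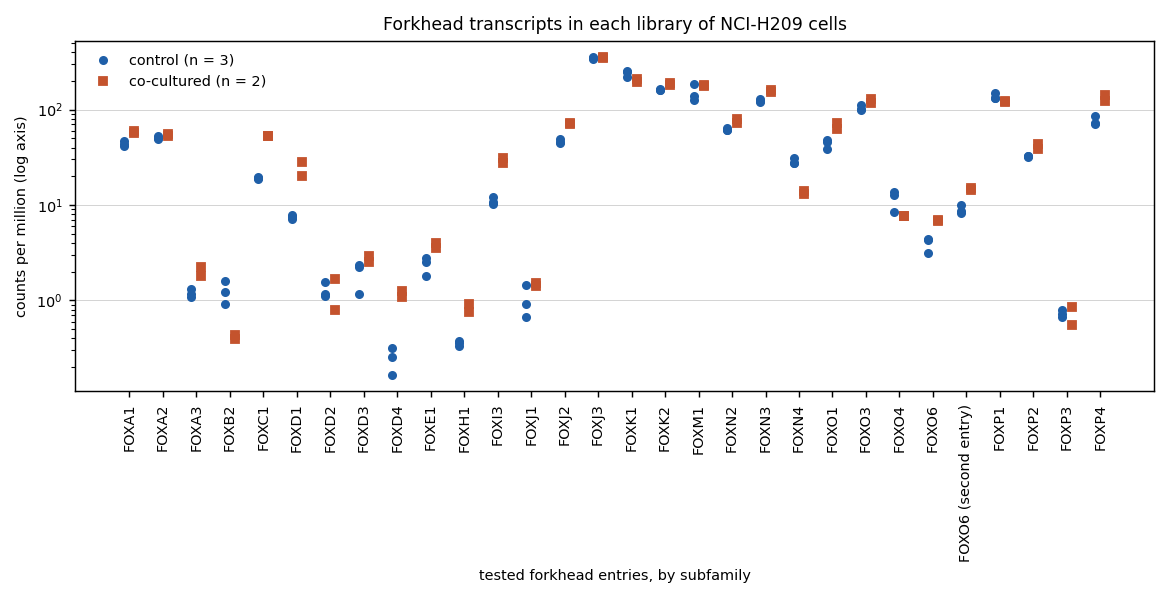
Level of 30 of the 31 tested forkhead entries in each library, in CPM on a log axis (y), with blue circles for the 3 control and red squares for the 2 co-cultured libraries, ordered by subfamily on the x axis. FOXC1, FOXD1, FOXI3, FOXO6 and FOXP4 show red squares well above the circles, FOXN4 shows them below, and the FOXM1 squares lie within the range of the circles.

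FOXM1 itself did not pass the test. It had 185, 125 and 138 CPM in the control libraries and 175 and 179.8 CPM in the co-cultured libraries, so both co-cultured values lay between the highest control and the other controls. The log2 fold change was 0.25 ± 0.14 (SE, adjusted p = 0.219). Without control replicate 1, the library that stood apart, it was 0.43 with an adjusted p of 2.57e-05. Of 24 partners and regulators of FOXM1, 23 were tested, with 6 higher (26.1%, against 18.4% of all genes), 2 lower (8.70%, against 15%) and a median of 0.08. MYBL2, which binds with FOXM1 to the MuvB complex, averaged 122 ± 24.7 CPM over the 3 controls and 191 ± 2.65 CPM over the 2 co-cultures (± SD, log2 fold change 0.64). RB1 (0.65), E2F3 (0.51) and the MuvB subunit LIN54 (0.34) were higher too, and CCNA2 (-0.50) and CDK1 (-0.38) were lower, while LIN9 was at -0.24 (adjusted p = 0.0810). While calls over all genes rose to 5295 higher and 4602 lower with control replicate 1 left out, the partners had 10 higher and 5 lower members. Without control replicate 2 or 3 they had 3 higher members, and without either co-cultured library 1.

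Most targets of FOXM1 fell. All 42 listed genes were tested, and 33 were lower (78.6%, against 15% of all genes) and 1 was higher (2.38%, against 18.4%), with a median log2 fold change of -0.68. CENPF, a kinetochore protein, averaged 1167 ± 142 CPM over the 3 controls and 655 ± 4.50 CPM over the 2 co-cultures (± SD, log2 fold change -0.83). The phosphatase CDC25C (-1.33), the mitotic kinase PLK1 (-1.07), the kinesins KIF23 (-0.95) and KIF14 (-0.93) and cyclin CCNB1 (-0.85) fell as well. EXO1, a nuclease of DNA repair, was the one that rose (0.26, adjusted p = 0.0485), and DESeq2 did not call it. The number of lower targets was 24 to 36 over the 13 alternatives, and 35 without control replicate 1. Of 35 targets with a promoter window, 22 (62.9%, against 18.2% of all genes) held TTTGAA on either strand, the core of the cell cycle homology region to which MuvB complexes bind, and 28 (80%, against 39.7%) held the CCAAT box. The forkhead motif was in 0 of the 35, against 4.19% of all genes, so few matches would be found in a list of this size.

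**Figure D3:**
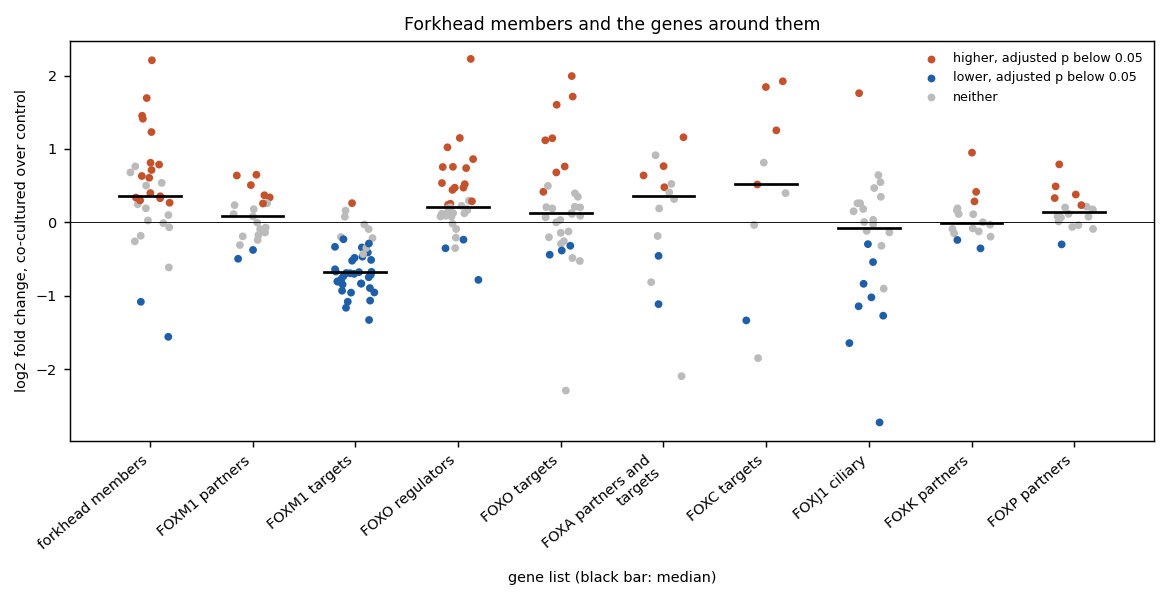
Log2 ratio of co-culture to control (y axis) for the forkhead members and the genes of 9 lists around them (x axis), with 1 point per tested gene, red for higher and blue for lower genes by the adjusted p, grey for the others and a black bar at the median. The 42 FOXM1 targets lie mostly below 0 with a median of -0.68, and the forkhead members lie mostly above 0 with a median of 0.36.

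FOXP4 and FOXP2 rose, and FOXP1 and FOXP3 did not pass the test. FOXP4, a repressor in lung and gut epithelium, had 84.8, 72.8 and 70.4 CPM in control and 143 and 124 CPM in co-culture (log2 fold change 0.81 ± 0.10 SE, adjusted p = 0.000513). FOXP2, known for its role in speech and song circuits, had 32.1, 32.7 and 32.7 CPM in control and 38.5 and 43.8 CPM in co-culture (0.34 ± 0.09 SE, adjusted p = 0.0204). Its groups did not overlap, yet the call was lost without any 1 of control replicate 2 (adjusted p = 0.0516), control replicate 3 (0.0543), co-cultured replicate 1 (0.0510) and co-cultured replicate 2 (0.216). FOXP1 had 149.9, 132 and 132 CPM in control and 119 and 124 CPM in co-culture. Both co-cultured libraries were below the controls, but the log2 fold change of -0.18 ± 0.09 did not pass (adjusted p = 0.132). FOXP3, the factor of regulatory T cells, had 0.798, 0.664 and 0.717 CPM in control and 0.547 and 0.859 CPM in co-culture (log2 fold change -0.07 ± 0.40, adjusted p = 0.915). Of 20 FOXP partners 18 were tested, with 5 higher (27.8%, against 18.4% of all genes), 1 lower (5.56%, against 15%) and a median of 0.14. The corepressor CTBP2 (0.79), GATAD2A (0.49) and MTA2 (0.38) had the smallest p of the rises, and MTA1, another subunit of the same deacetylase complex as GATAD2A and MTA2, fell (-0.30). With control replicate 1 left out there were 9 higher and 2 lower partners, and with 1 of the other libraries left out there were 1 or 2 higher.

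FOXJ2 rose from 48.7, 44.7 and 45.4 CPM to 72.1 and 71.3 CPM (log2 fold change 0.63 ± 0.08 SE, adjusted p = 0.000493), with the co-cultured libraries close together. FOXJ3 had 341 to 355 CPM in control and 359 and 348 CPM in co-culture, so the groups overlapped, and its log2 fold change was 0.03 ± 0.08 (adjusted p = 0.821). FOXJ1, the master factor of motile cilia, was near the filter at 12 to 27 counts per library (0.54 ± 0.37, adjusted p = 0.297). Of 32 genes of motile cilia 24 were tested, with 1 higher (4.17%, against 18.4% of all genes), 8 lower (33.3%, against 15%) and a median of -0.07. DNAH11 rose (1.76), and TEKT1 (-2.72), TEKT2 (-1.64) and MYB (-1.14) fell. TEKT1 passed the filter only through the controls (1.12 to 2.16 CPM, against 0.273 and 0.198 CPM after co-culture). The filter therefore set the direction of TEKT1, which stays among the 8 lower genes. MYB is best known for roles outside cilia, in blood progenitors. Without control replicate 1 there were 5 higher cilia genes, without control replicate 2 or 3 there were 5 lower, and without either co-cultured library 3 lower.

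FOXK1 and FOXK2, which recruit the SIN3 and BAP1 complexes, did not pass the test. FOXK1 had 219.7 to 253 CPM in control and 208 and 195 CPM in co-culture (-0.26 ± 0.09 SE, adjusted p = 0.0513), and without control replicate 1 it was -0.32 with an adjusted p of 0.000258. FOXK2 had 161 to 163 CPM in control and 182 and 188 CPM in co-culture (0.19 ± 0.07 SE, adjusted p = 0.0682), and without control replicate 1 it was 0.20 with an adjusted p of 0.00745. Of 16 FOXK partners 3 were higher (SAP30 0.95, HCFC1 0.42 and MBD6 0.29) and 2 lower (SUDS3 -0.35 and DVL3 -0.24), with a median of -0.01. These were 18.8% and 12.5% of the list, near the 18.4% and 15% of all genes. Without control replicate 1 there were 4 lower partners and without control replicate 2 or 3 there was 1, and without either co-cultured library 1 was higher. FOXE1, the thyroid factor, had 34 to 65 counts per library (0.68 ± 0.25, adjusted p = 0.0612).

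Of 14 genes listed as FOXC targets 9 were tested, with 4 higher (44.4%, against 18.4% of all genes), 1 lower (11.1%, against 15%) and a median of 0.52. CXCR4, a chemokine receptor, averaged 36.0 ± 3.73 CPM over the 3 controls and 129 ± 42.1 CPM over the 2 co-cultures (± SD, log2 fold change 1.84). HEY2 (1.25) and MSX1 (1.92) rose, and NOTCH1 (-1.34) fell. NOTCH1 had 8.40, 6.69 and 3.94 CPM in control and 2.62 and 2.38 CPM in co-culture, so its controls differed widely among themselves. Without co-cultured replicate 2 there were 2 higher targets, and without control replicate 3 there were 2 lower, whereas NOTCH1 was not called with either co-cultured library left out.

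Levels between members were compared per kilobase of merged exons. FOXJ3 was the highest in control at 50.4 ± 1.01 CPM per kb (SD, n = 3), and FOXM1 stood at 30.5 ± 6.43. FOXA2 (19.5 ± 0.506) and FOXK1 (18.4 ± 1.42) were lower and differed by less than the spread of FOXK1, and FOXK2 followed at 16.2 ± 0.113. After co-culture FOXJ3 was again the highest (51.3 ± 1.12, n = 2), FOXM1 was at 36.2 ± 0.716, and FOXP4 reached 21.6 ± 2.19, level with FOXA2 at 21.0 ± 0.621. With the longest transcript in place of merged exons FOXM1 was at 42.8 and FOXK2 at 30.7 in control, so these levels depend on the transcript counted. FOXC1 stood at 4.87 ± 0.111 in control and at 13.3 ± 0.0178 in co-culture, below FOXO1, FOXJ2 and FOXA1 in control and above FOXO1 and FOXJ2 in co-culture. The entries with a known length, which leave out the second FOXO6 entry, summed to 276 CPM per kb in control and 339.5 in co-culture. Of these sums the FOXJ genes held 21.1% ± 0.739 (SD, n = 3) and 18.6% ± 0.0194 (SD, n = 2).

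**Figure D4:**
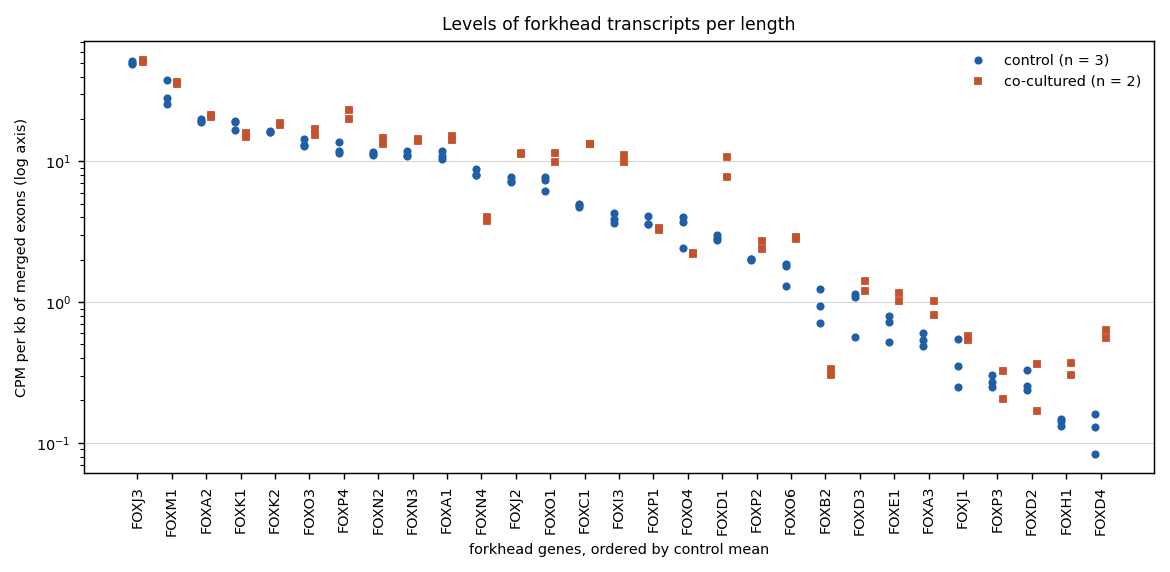
Level of tested forkhead genes in each library, in CPM per kilobase of merged exons on a log axis (y), ordered by the control mean on the x axis, with blue circles for the 3 control and red squares for the 2 co-cultured libraries. FOXJ3 leads at about 50.4 in control, and FOXD4 and FOXH1 are the lowest.

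Genes of a single exon made up 8 of the tested members, of which 4 were higher and 1 lower, the median log2 ratio being 0.59. FOXD4 and FOXB2 are among these calls and FOXH1 among those of genes with more exons, and the filter set their direction. Of 5 members with 2 exons in the longest transcript 3 were higher (median 0.76), and of 17 members with more exons 8 were higher and 1 lower (median 0.27), beside 18.4% higher and 15% lower of all genes, whose shares by exon number were not computed.

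Reads on the strand opposite to a gene were counted apart. Their share over all libraries had a median of 0.82% over the tested members, against 0.78% over all genes tested, and it exceeded 10% in 7 members, while 21.3% of all genes tested exceeded it. FOXC1, FOXD1, FOXI3, FOXO1, FOXO3, FOXP2 and FOXP4 were all under 5%. The 7 were FOXH1 (97.9%), FOXD2 (77.2%), FOXP3 (72.4%), FOXD3 (31.4%), FOXJ1 (23.7%), FOXK2 (16.1%) and FOXN4 (10.4%). For FOXN4 the fall was as large, at -1.14, when the opposite-strand counts were subtracted.

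FOXH1, the partner of SMAD proteins in nodal signaling, had 7, 6 and 7 counts on its own strand under control conditions and 14 and 14 after co-culture (0.372, 0.332 and 0.358 CPM, then 0.765 and 0.925 CPM), against 371 to 513 on the other. KIFC2, which overlaps it on the other strand, had 1028 to 1223 counts in control and 1587 and 1220 in co-culture. The log2 fold change of FOXH1 was 1.23 ± 0.42 (SE, adjusted p = 0.0474). It was 0.18 with unstranded counts (adjusted p = 0.729), its adjusted p was 0.193 by DESeq2, and it was 0.0984, 0.0832, 0.170 and 0.256 without control replicate 2, control replicate 3, co-cultured replicate 1 and co-cultured replicate 2. FOXK2 had 258, 399 and 500 opposite-strand counts in control and 1109 and 677 in co-culture, and WDR45B, which overlaps it on that strand, rose from 1795, 2557 and 3304 counts to 7471 and 4484 (log2 fold change 1.38 ± 0.21 SE, adjusted p = 0.00134). With the opposite-strand counts subtracted, the log2 fold change of FOXK2 was -0.11 (adjusted p = 0.390). FOXP3 overlaps CCDC22 on the other strand (log2 fold change 0.47, adjusted p = 0.0184), and FOXD3 overlaps FOXD3-AS1 (-0.08, adjusted p = 0.854).

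**Figure D5:**
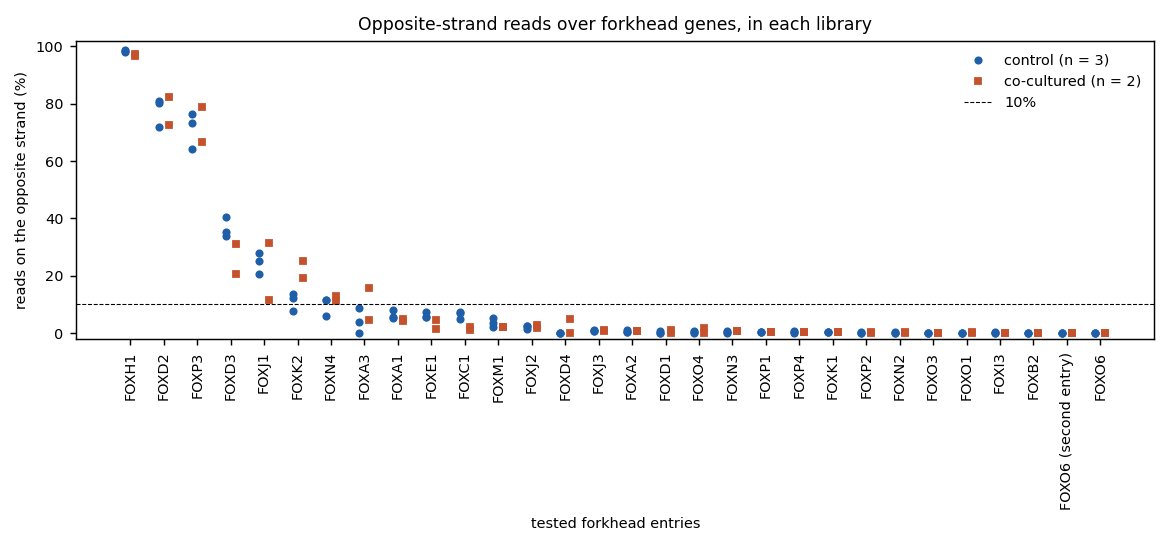
Share of reads on the opposite strand (y axis, percent of the reads of both strands) for 30 of the 31 tested forkhead entries (x axis) in each library, with blue circles for the 3 control and red squares for the 2 co-cultured libraries and a dashed line at 10%. FOXH1, FOXD2 and FOXP3 lie far above the line in every library, and most other members lie near 0.

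The 8 entries not tested were FOXB1, FOXC2, FOXE3, FOXF1, FOXI1, FOXL1, FOXL2 and FOXQ1, which had 0 to 6 counts per library, and 4 of them never exceeded 3. Expression of these genes was not detectable at this depth beyond such counts. FOXL2 counts were 6, 6 and 4 for control, then 2 and 0 for co-culture, beside 6, 4 and 0, then 0 and 3 on the opposite strand.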

How the data were processed

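RNA-Seq of 3 control and 2 co-cultured NCI-H209 libraries was analysed, with groups taken from the sample labels. The authors deposited raw read counts per gene for each library, without strand and for each strand, in the layout of STAR. The submitters' processing notes name CASAVA 1.8, STAR 2.6.1b, DESeq2 and GRCh38, and the identifiers are those of GENCODE release 29 with further entries outside the primary annotation. The authors' comparison table, which has the layout of DESeq2 output (group means, fold changes and p-values), was used for gene symbols only. The expected strand held 92.3% to 93.1% of the reads on genes.

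Genes kept by filterByExpr of edgeR 4.0.16 (R 4.3.3) were normalized by TMM and compared with its quasi-likelihood test, two-sided, with Benjamini-Hochberg adjustment. Standard errors are the log2 fold change over the square root of F. CPM are scaled by TMM, and those of the opposite strand by the library total alone. The smallest p an exact permutation of 5 libraries allows is 0.1, and the fit across all genes was used instead. On simulated data for this comparison, with 19853 genes tested, 54 of 92 genes changed by 1 on the log2 scale and 87 of 97 changed by 2 were recovered, with 8 unchanged genes called. All other genes were simulated as unchanged, with the spread that the fit had estimated. In the data 3750 genes were called higher and 3059 lower, so these rates do not carry over to the data. Counting error is the only error that a floor of 3 counts covers.

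The members and the gene lists were chosen with earlier results of these data known, and the lists were written from general knowledge. Tested members are named with their fold changes. Called members, FOXM1 and the FOXA, FOXC, FOXO and FOXP genes are given in every library, and each list is named by up to 3 called genes of smallest p in each direction, with direct partners. The sequence of FOXH1 and some further genes and sequences, among them 1 tested member that the counts include, are not reported here. Alternatives were DESeq2 1.42.0, normalization by median ratios or upper quartiles, 2 other filters, other uses of the strands, a replicate block and each library left out in turn. Plots were drawn with matplotlib 3.10.9.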

Additional observations from a re-analysis of the deposited data

Results flagged for a closer look

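Opposite-strand reads were not part of the comparison of the groups, and for 4 of the tested members with more than 3 of them in each co-cultured library, both co-cultured libraries held more, scaled to the library total, than any control library. The ratio of the mean opposite-strand CPM in co-culture to that in control was 2.45 for FOXK2, 1.66 for FOXJ2, 1.65 for FOXN3 and 1.21 for FOXH1. For FOXK2 the values were 13.5, 23.0 and 26.1 CPM in control and 58.6 and 43.8 CPM in co-culture, beside the rise of the overlapping WDR45B (log2 fold change 1.38). For FOXH1 they were 23.5, 24.8 and 19.4 CPM in control and 27.1 and 27.4 CPM in co-culture, and the overlapping KIFC2 had a log2 fold change of 0.45. FOXJ2 and FOXN3 had only 11 to 39 and 4 to 17 opposite-strand counts per library. Both co-cultured libraries lay below every control for FOXM1 (3.97, 7.05 and 5.18 CPM, then 3.59 and 3.75 CPM). The same held for FOXK1 (0.574, 0.751 and 0.575 CPM, then 0.476 and 0.518 CPM). How often the opposite-strand reads of all genes separate the groups was not computed, so these counts of members have no background. The part of the overlapping genes in these reads was not tested.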

How the results depend on the processing

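The 16 higher members became 10 with the replicate block and 7 to 18 with 1 library left out, and were 12 to 18 under the other alternatives. The 2 lower members became 5 under upper-quartile normalization, 4 with a filter of 1 count in 1 library and 1 to 4 with 1 library left out. The 7 members meeting the study's criterion became 4 when at least 10 counts were required in every library, which leaves 28 members tested. They became 5 with unstranded counts and 8 with a filter of 1 count in 1 library. Their number stayed at 7 with any 1 control library left out and was lower without either co-cultured library. Called members kept their call in 190 of 230 single results and lost it in 40 without a change of direction. Those not called passed in 16 of 167 and changed sign in 6, and none of these 6 passed the threshold. With 1 library left out FOXD2 ran from -0.67 to 0.41 and FOXP3 from -0.40 to 0.25. FOXD2 was above 0 without control replicate 1 (0.16) or co-cultured replicate 2 (0.41), and FOXP3 without control replicate 1 (0.0029) or co-cultured replicate 1 (0.25). FOXJ3 was at -0.054 under upper-quartile normalization and FOXK2 at -0.11 with the opposite-strand counts subtracted. Upper-quartile normalization moved the median of all genes by -0.08 on the log2 scale. Members under about 30 counts per library, such as FOXB2, FOXD4, FOXH1, FOXJ1 and FOXP3, are limited by depth.

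The labels give both groups replicate numbers but do not say that a number marks a shared culture or day. The deviations of same-numbered libraries correlated at -0.15 (replicate 1) and -0.08 (replicate 2) across genes, so the numbers were not taken to pair the samples. With the replicate block the calls of FOXH1, FOXN2, FOXN3, FOXO3 and FOXP2 were among those lost, the FOXM1 targets had 28 lower genes, and over all genes 2771 were higher and 2053 lower.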
